A study of Mus musculus with 2 samples.

Results

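The genes described here handle or sense vitamin A derivatives (retinoids) inside cells. Taken by name for their roles, with earlier results of these data known, they number 9 of the 32285 genes listed in each matrix. They are the retinoic acid binding proteins Crabp1 and Crabp2, the retinal dehydrogenases Aldh1a1, Aldh1a2 and Aldh1a3, the retinoic acid hydroxylase Cyp26b1, the nuclear retinoic acid receptors Rarb and Rarg, and the retinol transporter Stra6. The study compared progenitors of white and of brown adipose tissue by droplet-based single-cell RNA sequencing, with 1 library for each depot. Both groups came from newborn C57/BL6J mice of both sexes, given as P0 in the labels and P1 in the methods: white cells from subcutaneous fat, brown cells from the interscapular depot, pooled from 4 pups per the study's methods. Cells of the stromal vascular fraction were grown in serum-containing medium to confluency before they were captured, so the values belong to cultured cells. The brown tissue was digested longer in collagenase than the white tissue, and depot, digestion time and library cannot be told apart.

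Retinol enters many cells through STRA6, is oxidised to retinal, and is then turned irreversibly into retinoic acid by the ALDH1A enzymes. Cellular retinoic acid binding proteins hold the product in the cytosol, CYP26 enzymes break it down, and the retinoic acid receptors (RARs), paired with retinoid X receptors, switch target genes on when it is bound. In adipose tissue the pathway is known for its influence on the commitment of precursors to fat cells, with ALDH1A1 as the best studied of the synthesising enzymes.

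Expression is given as CPM, the unique molecular identifiers (UMIs) of a gene summed over the cells of a group, per 1000000 UMIs of those cells. Levels are set side by side only for 1 gene across groups, never between genes. After the study's cell filter the white library held 4332 precursor cells with 122939077 UMIs and the brown library 5963 with 169681957, with a median of 26950 and 26419 UMIs per cell. Cluster values rest on the 1999 cells of each depot whose labels were used here, a part of the cells. The clusters, named as in the study, are early adipocyte precursors (wAPC and bAPC), committed precursors of adipocytes (CAPs), and FAPLs, which resemble fibro-adipogenic progenitors, with w for white and b for brown. Since the labels were made from the expression of the same cells, differences between clusters are descriptions. With 1 library per depot there was no test: intervals at 95% (exact Poisson for levels, conditional binomial for ratios, Clopper-Pearson for shares) cover counting error only and say nothing of the spread between animals. Precursor cells held the precursor markers Pdgfra, at 117 CPM in white and 83.7 CPM in brown, and Dlk1, while the mature fat cell marker Adipoq stood at 0.122 and 0.471 CPM. Of all captured barcodes 9 occurred in both libraries.

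On GRCm38 the retinoic acid binding protein genes lie on chromosome 9 (Crabp1, chr9:54764748-54773110) and chromosome 3 (Crabp2, chr3:87948666-87953376), and the dehydrogenase genes on chromosomes 19 (Aldh1a1, chr19:20492715-20643465), 9 (Aldh1a2, chr9:71215789-71296243) and 7 (Aldh1a3, chr7:66390890-66427517). Cyp26b1 lies at chr6:84571414-84593908, Rarb at chr14:16430839-16819156, Rarg at chr15:102234938-102257517 and Stra6 at chr9:58063788-58153996.

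Retinoic acid receptors bind pairs of half-sites of the kind GGTCA or GTTCA, so these letters were searched on both strands in the 250 bases before the RefSeq gene starts (GRCm38.p6), in the same direction with 6 bases between them (the spacing called DR5) or 3 (DR2). At least 1 window was at hand for 7 of the 9 genes, 12 windows in all. The Rarb window held a DR5 pair on chromosome 14 (chr14:16575507-16575535, minus strand). It lay from 53 to 37 bases before a start that is inside the Rarb gene span given above, in a window that overlapped annotated exons. The site is shown because Rarb is the textbook target of its own ligand. Capitals, and the positions given, mark the pair and the G before it, with 6 bases more on each side.
Rarb site: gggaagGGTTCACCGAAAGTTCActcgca
A DR5 pair of these letters occurred in 69 of 32851 windows (0.210%) and a DR2 pair in 96 (0.292%). None of the other 11 windows held either, which says only that these letters were not in them. Shown next are the windows of Crabp1 (chr9:54764498-54764747, plus strand), which differed widely among clusters, and of Aldh1a1 (chr19:20492333-20492582, plus strand) and Aldh1a2 (chr9:71215539-71215788, plus strand), which were both highest in FAPLs. None of these 3 windows overlapped an annotated exon, and no capitals appear because no pair was found. Aldh1a1 had another window, not shown, at a start inside the gene (chr19:20601718-20601967). That window held 46.4% G and C and overlapped an annotated exon.
Crabp1: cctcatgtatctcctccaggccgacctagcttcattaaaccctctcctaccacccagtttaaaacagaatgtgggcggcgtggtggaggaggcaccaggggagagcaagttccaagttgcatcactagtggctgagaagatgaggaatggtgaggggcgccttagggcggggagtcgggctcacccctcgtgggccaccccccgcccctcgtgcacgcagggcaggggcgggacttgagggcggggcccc
Aldh1a1: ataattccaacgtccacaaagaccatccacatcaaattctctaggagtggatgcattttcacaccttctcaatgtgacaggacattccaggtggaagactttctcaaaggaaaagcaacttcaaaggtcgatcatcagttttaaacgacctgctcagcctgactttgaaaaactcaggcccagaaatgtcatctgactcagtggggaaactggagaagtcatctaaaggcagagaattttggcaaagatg
Aldh1a2: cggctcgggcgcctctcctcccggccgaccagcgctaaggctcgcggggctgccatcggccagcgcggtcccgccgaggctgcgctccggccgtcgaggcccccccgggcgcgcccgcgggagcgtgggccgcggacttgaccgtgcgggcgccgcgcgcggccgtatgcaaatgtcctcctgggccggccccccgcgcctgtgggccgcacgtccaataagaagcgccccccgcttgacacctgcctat
The base composition of the windows shown differed, with 63.6% G and C in that of Crabp1, 42.8% in that of Aldh1a1 and 77.6% in that of Aldh1a2.

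Between the depots, Crabp1 was lower in white cells and Aldh1a1 higher. The level of Crabp1 was 53.1 CPM in white precursor cells (interval 51.8 to 54.4) against 115 CPM in brown ones (113 to 116), a log2 ratio of white over brown of -1.11 (-1.15 to -1.07). That of Aldh1a1 was 12.8 CPM in white (12.2 to 13.5) against 5.80 CPM in brown (5.44 to 6.17), a log2 ratio of 1.15 (1.03 to 1.26). These were the 2 members past 2-fold among the 4 that reached 10 CPM in either depot, a filter that a gene can pass through its higher depot alone. Over all 9038 genes at 10 CPM, 1.84% were past 2-fold in either direction (1.11% higher and 0.73% lower in white), and their median log2 ratio was 0.04. Crabp1 came within 2-fold, at -0.87, when the clusters of each depot were given equal weight.

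The other members at 10 CPM lay closer together. Aldh1a3 stood at 13.5 CPM in white and 9.16 CPM in brown cells, a log2 ratio of 0.55 (0.45 to 0.66), which became 1.39 with clusters weighted equally. Rarg, the receptor with the most even levels, stood at 27.1 CPM (26.1 to 28.0) and 22.6 CPM (21.9 to 23.3), a log2 ratio of 0.26. Of the 5 members under 10 CPM in both depots, Rarb had 3.83 CPM in white and 1.79 CPM in brown cells, a log2 ratio of 1.10 (0.89 to 1.31). Cyp26b1 had 2.20 and 3.38 CPM, Crabp2 3.74 and 4.43 CPM, and Aldh1a2 1.81 and 1.42 CPM. Stra6, which carries retinol across the cell membrane, had 7 UMIs in all white and 10 in all brown precursor cells, 0.0569 and 0.0589 CPM.

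**Figure D1:**
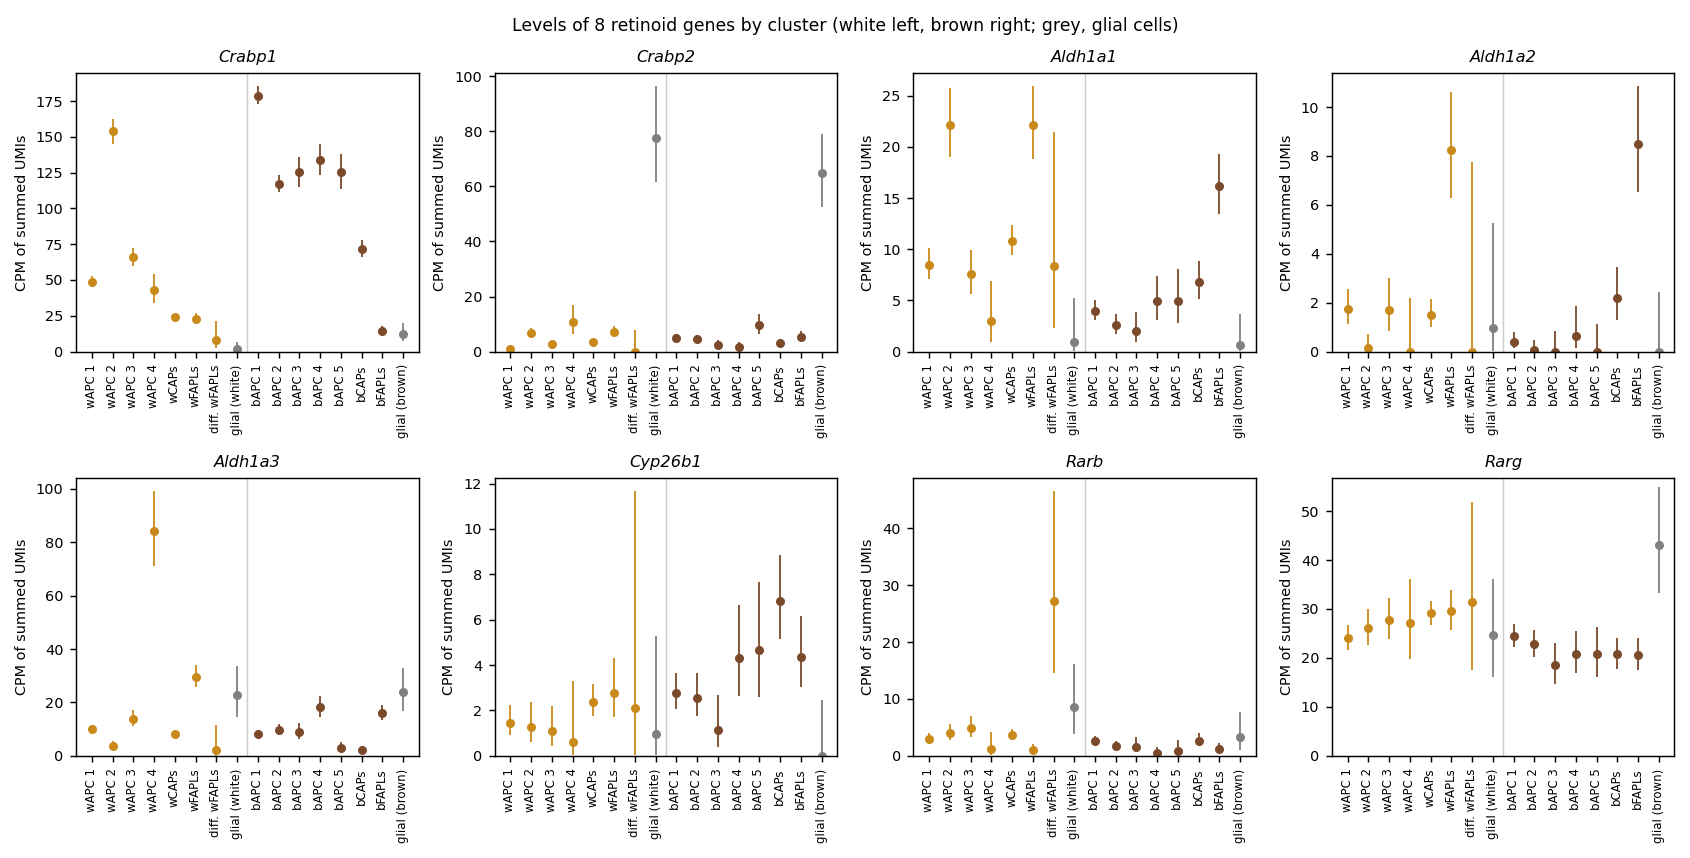
Levels of 8 members by cluster, in CPM of summed UMIs on a linear axis that differs between panels, with exact 95% Poisson intervals (counting error only). White clusters are on the left and brown on the right of each panel, and grey points are the glial cells of each library. Crabp1 ranged from 8.39 to 154 CPM over white clusters, Aldh1a2 was highest in FAPLs of both depots, and Crabp2 was highest in glial cells.

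The binding protein Crabp1 differed widely among the clusters. Among white clusters, wAPC 2 led with 154 CPM, followed by wAPC 3 with 66.1, wAPC 1 with 48.8, wAPC 4 with 43.0, wCAPs with 24.4, wFAPLs with 23.0 and the 15 differentiating wFAPLs with 8.39. Among brown clusters, bAPC 1 led with 179 CPM, followed by bAPC 4 with 134, bAPC 5 and bAPC 3 with 125 each, bAPC 2 with 117, bCAPs with 71.8 and bFAPLs with 14.6. In each depot the early precursors were thus all above the CAPs and FAPLs. Of the white clusters, wAPC 2 alone reached the range of the brown early precursors. Of the 6 pairs of neighbours in the order of levels, the interval of the log2 ratio held 0 in 2 white pairs (wAPC 1 and wAPC 4, wCAPs and wFAPLs) and in 3 brown pairs, all among bAPC 2 to 5. Cells of other types in the libraries held little Crabp1 in white, 1.89 CPM in 46 glial and 1.18 in 29 myeloid cells. In brown they held 12.6 CPM in 68 glial cells, 23.0 in 75 myeloid cells, and 71.5 in 31 myogenic cells, where 1 cell held 31 of the 66 UMIs.

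CAPs and FAPLs stood in a different relation to each other in the depots. In white cells the log2 ratio of CAPs over FAPLs for Crabp1 was 0.09 (-0.17 to 0.35), with 474 and 165 UMIs. In brown cells it was 2.30 (2.00 to 2.61), with 589 and 110 UMIs, a 4.92-fold difference. Seen across depots, wCAPs were below bCAPs (log2 ratio -1.55, -1.73 to -1.38) while wFAPLs were above bFAPLs (0.66, 0.30 to 1.02). The intervals lay on opposite sides of 0, and the difference between the classes was not tested over animals. The white ratio was the less settled of the pair, at 0.39 when labels were carried over to all cells and -0.42 when cells with a mural marker UMI were left out.

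Crabp2, which passes retinoic acid on to the nuclear receptors, was a low gene of precursor cells. Its highest levels were 10.6 CPM (6.29 to 16.8) in wAPC 4, from 18 UMIs in 62 cells, and 9.60 CPM (6.52 to 13.6) in bAPC 5, from 31 UMIs in 115 cells. wAPC 1 held 0.905 CPM, and the differentiating wFAPLs none among 15 cells, where 0 counts allow a level of up to 6.29 CPM (3 counts of the total). The few glial cells stood far above them, with 77.6 CPM in the white library (61.7 to 96.4) and 64.9 CPM in the brown one (52.7 to 79.1). With every cell drawn down to 10000 UMIs, 45.7% of white and 32.4% of brown glial cells held a Crabp2 UMI, against 2.79% and 3.94% of precursor cells. Without thinning the shares were 67.4% and 50.0% of glial cells and 6.28% and 8.20% of precursor cells, at median depths of 20107 and 19494.5 UMIs for glial cells. In brown glial cells 1 cell held 23 of the 98 UMIs.

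The 3 dehydrogenases that make retinoic acid were each highest, or next to highest, in FAPLs. Aldh1a1 stood at 22.2 CPM (18.9 to 25.9) in wFAPLs and 16.2 CPM (13.4 to 19.3) in bFAPLs. wAPC 2 matched wFAPLs at 22.2 CPM (19.0 to 25.7), and the other white clusters lay between 2.95 CPM in wAPC 4 and 10.8 CPM in wCAPs. In brown cells the clusters other than bFAPLs lay between 2.05 CPM in bAPC 3 and 6.83 CPM in bCAPs. The log2 ratio of CAPs over FAPLs was -1.03 (-1.34 to -0.73) in white and -1.25 (-1.73 to -0.78) in brown cells, and became 0.64 and -0.38 when cells with a UMI of genes of vessel wall cells were left out. Aldh1a7, a close copy of Aldh1a1 that could share its reads, was listed at 0.456 CPM in white and 0.371 CPM in brown cells.

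Aldh1a2, the dehydrogenase of the early embryo, was highest in the same clusters. It stood at 8.23 CPM (6.26 to 10.6) in wFAPLs, from 59 UMIs in 27 of 256 cells, and at 8.49 CPM (6.54 to 10.8) in bFAPLs, from 64 UMIs in 20 of 279 cells. The highest single cell held 14 UMIs in each. Elsewhere it did not exceed 1.74 CPM in white (wAPC 1) or 2.19 CPM in brown clusters (bCAPs, where 1 cell held 10 of 18 UMIs), and no UMI was found in wAPC 4, bAPC 3, bAPC 5 or the differentiating wFAPLs, which allows up to 1.77, 0.685, 0.929 and 6.29 CPM. The log2 ratio of CAPs over FAPLs was -2.46 (-3.15 to -1.80) in white and -1.95 (-2.79 to -1.18) in brown cells. FAPLs of the depots differed little (white over brown -0.05, -0.58 to 0.49).

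Aldh1a3 led in a different white cluster. It stood at 84.3 CPM (71.0 to 99.3) in wAPC 4, where 46.8% of 62 cells held a UMI, then at 29.7 CPM (25.9 to 34.0) in wFAPLs, 13.8 in wAPC 3, 9.88 in wAPC 1, 7.99 in wCAPs, 3.74 in wAPC 2 and 2.10 in differentiating wFAPLs. In brown cells it stood at 18.2 CPM in bAPC 4, 16.1 in bFAPLs, 9.84 in bAPC 2, 8.90 in bAPC 3, 8.32 in bAPC 1, 2.79 in bAPC 5 and 2.19 in bCAPs. The bAPC 4 value rested on few cells, with 34 and 25 of its 85 UMIs in the 2 highest, and without the highest cell it was below that of bFAPLs. The log2 ratio of CAPs over FAPLs was -1.89 (-2.20 to -1.59) in white and -2.87 (-3.67 to -2.15) in brown cells. Glial cells held 22.7 CPM in white and 23.8 CPM in brown.

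**Figure D2:**
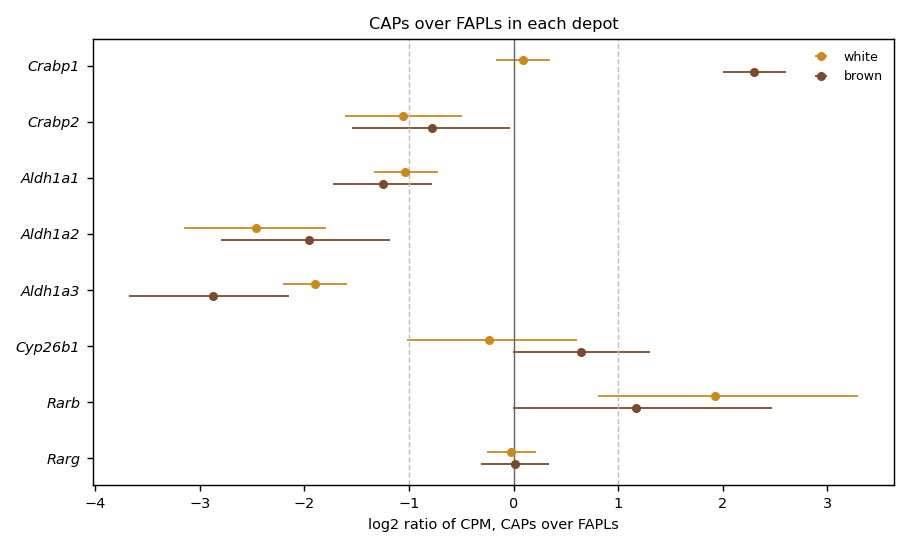
Log2 ratio of CPM in CAPs over FAPLs for 8 members, in white and brown cells, with 95% intervals for counting error only. Dashed lines mark 2-fold. The dehydrogenases lie left of 0 in both depots, Rarg lies at 0, and Crabp1 lies at 0.09 in white and 2.30 in brown cells.

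In the comparison of CAPs with FAPLs, 2 of the 4 members at 10 CPM were past 2-fold in white cells (Aldh1a1 and Aldh1a3, both lower in CAPs) and 3 of 4 in brown cells (the same genes lower, Crabp1 higher). Over all genes at 10 CPM, 3.85% of 9199 in white cells (1.6% higher and 2.25% lower in CAPs) and 3.87% of 9148 in brown cells (2.01% higher, 1.86% lower) were past 2-fold. FAPLs also carried more RNA of the mural list, genes of the cells that wrap blood vessels (Rgs5, Myh11, Abcc9, Kcnj8, Notch3 and Mcam), summing to 275 CPM in wFAPLs against 42.3 in wCAPs, and to 243 CPM in bFAPLs against 69.1 in bCAPs. At least 1 UMI of the list was present in 220 of 256 wFAPLs and 233 of 279 bFAPLs, and also in 380 of 674 wCAPs and 183 of 296 bCAPs. In the 36 wFAPLs with no such UMI Aldh1a1 stood at 6.59 CPM (2.42 to 14.3, 6 UMIs), against 24.4 CPM (20.7 to 28.6) in the 220 with one, and the ratio of CAPs over FAPLs among cells without one was 0.64 on the log2 scale. In brown cells without a mural UMI, Aldh1a1 stood at 7.73 CPM in bCAPs and 10.1 CPM in bFAPLs, so that its ratio came within 2-fold (-0.38 on the log2 scale) and 2 members in place of 3 were past 2-fold. Aldh1a3 kept a log2 ratio of -1.34 in white and -3.26 in brown cells without mural UMIs. Aldh1a2 held 5 UMIs in the 36 wFAPLs without a mural UMI and none in the 46 such bFAPLs, where 0 counts allow a level of up to 2.52 CPM.

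Cyp26b1, which removes retinoic acid, was low throughout. Brown clusters ran from 1.14 CPM in bAPC 3 to 6.83 CPM (5.16 to 8.87) in bCAPs, and white clusters from 0.589 CPM in wAPC 4 to 2.79 CPM in wFAPLs. In CAPs the log2 ratio of white over brown was -1.52 (-2.12 to -0.94), from 46 and 56 UMIs, and it was -0.81 with labels carried over to all cells. In none of the 6 neighbouring pairs of either depot did the interval exclude 0. Neighbours are the closest pairs by level, and clusters further apart did differ. The interval of bCAPs lay above those of bAPC 2 (1.74 to 3.64 CPM) and bAPC 3 (0.371 to 2.66). Single cells weighed heavily, since 1 of 674 wCAPs held 13 of the 46 UMIs and 1 of 256 wFAPLs 9 of 20.

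Of the receptors, Rarg varied little among the clusters. Its cluster levels ran from 24.1 CPM in wAPC 1 to 29.6 CPM in wFAPLs, with 31.5 CPM (17.6 to 51.9) in the 15 differentiating wFAPLs, and in brown cells from 18.5 CPM in bAPC 3 to 24.4 CPM in bAPC 1. No neighbouring pair of either depot had an interval that excluded 0. Neighbours are the closest pairs by level, so this does not show that clusters further apart were alike. The interval of wAPC 1 (21.61 to 26.76 CPM) ended just below that of wCAPs (26.79 to 31.64). The log2 ratio of CAPs over FAPLs was -0.02 (-0.25 to 0.21) in white and 0.01 (-0.31 to 0.34) in brown cells. White was above brown in both classes, by a log2 ratio of 0.49 (0.24 to 0.75) in CAPs and 0.52 (0.22 to 0.83) in FAPLs. Glial cells held 24.6 CPM in white and 43.0 CPM in brown, and myeloid cells 3.55 and 2.93 CPM.

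Rarb was low in FAPLs, at 0.976 CPM in wFAPLs from 7 UMIs and 1.19 CPM in bFAPLs from 9 UMIs, and stood at 3.71 and 2.68 CPM in CAPs. The log2 ratio of CAPs over FAPLs was 1.93 (0.81 to 3.29) in white and 1.17 (-0.01 to 2.47) in brown cells. It was 0.87 in white cells thinned to 10000 UMIs and -0.06 in brown cells of G1 phase. Its highest level was in the 15 differentiating wFAPLs, at 27.3 CPM (14.5 to 46.6), from 13 UMIs in 8 cells. That cluster also held 3042 CPM of the mural list, the most of any cluster, and only 6.29 CPM of the precursor marker Pdgfra, and the part of those cells in the Rarb level was not tested.

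**Figure D3:**
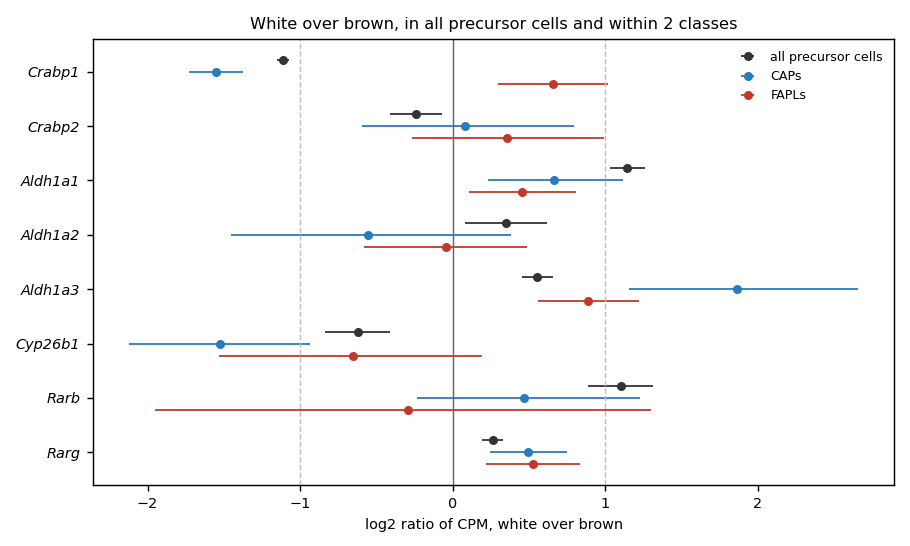
Log2 ratio of CPM in white over brown cells for 8 members, in all precursor cells (black), CAPs (blue) and FAPLs (red), with 95% intervals for counting error only. Dashed lines mark 2-fold. Crabp1 lies at -1.55 in CAPs and 0.66 in FAPLs, and Rarg lies between 0.26 and 0.52 in each group.

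Within CAPs, 1 of the 3 members at 10 CPM (Crabp1) was past 2-fold between the depots, where 4.32% of 9235 genes were (2.14% lower in wCAPs). Aldh1a3 stood at 7.99 CPM in wCAPs and 2.19 CPM in bCAPs, a log2 ratio of 1.87 (1.16 to 2.66) that was 0.88 with cells thinned to 10000 UMIs, and both levels were below the 10 CPM set for such a call. Within FAPLs none of 4 members was past 2-fold, where 1.69% of 9136 genes were (1.04% higher and 0.646% lower in wFAPLs), and the ratios ran from 0.45 for Aldh1a1 to 0.89 (0.56 to 1.22) for Aldh1a3. All 4 were nonetheless higher in wFAPLs than in bFAPLs, by a median log2 ratio of 0.59 against 0.03 over all genes. Of the members under 10 CPM, Crabp2 was higher as well (0.36), while Aldh1a2 (-0.05), Rarb (-0.29) and Cyp26b1 (-0.65) were lower.

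The members differed in how evenly cells of a depot shared their RNA. With precursor cells thinned to 10000 UMIs, Crabp1 was found in 23.0% of 4331 white and 36.0% of 5963 brown cells (36.6% and 50.1% without thinning). In glial cells the thinned shares were 4.35% and 10.3%. The 5% of cells with most Crabp1 held 49.9% of its UMIs in white and 40.7% in brown, with up to 24 and 29 UMIs in 1 cell. Its variance over cells was 3.54 and 5.00 times its mean, and 5.05 times within bAPC 1 alone, with labels carried over to all cells. Rarg, found in 23.8% and 19.5% of cells, had a variance of 1.08 and 1.02 times the mean, close to the value of 1 that counting alone gives, and no cell exceeded 4 UMIs. By this measure Aldh1a3 lay between them, with 2.18 and 2.22. By the other it was less even than Crabp1, as the top 5% of cells held 73.7% and 88.4% of its UMIs. Both measures shift with the mean level, so they do not rank these genes for evenness. The means were 0.127 and 0.0907 UMIs per cell for Aldh1a3, and 0.507 and 1.14 for Crabp1.

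**Figure D4:**
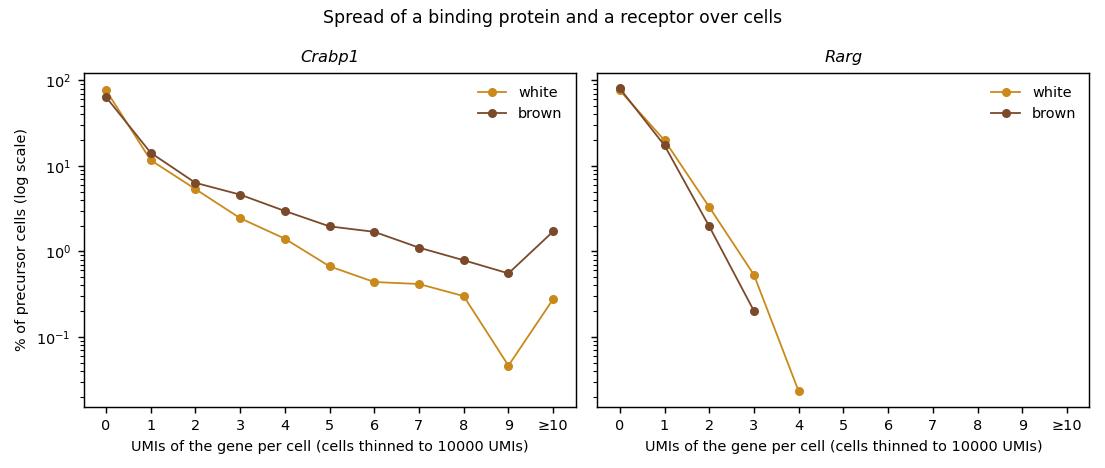
Share of precursor cells, in percent on a log axis, by the number of UMIs of Crabp1 (left) and Rarg (right) per cell, with cells thinned to 10000 UMIs and the last point standing for 10 or more. Rarg ends at 4 UMIs, whereas 2.15% of white and 7.81% of brown cells held 5 or more UMIs of Crabp1.

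Members were also counted in the same cells, over the labelled precursors thinned to 10000 UMIs. In white cells 22 held both Crabp1 and Aldh1a3, where independence within clusters gives 31.6, and in brown cells 33 did, where it gives 37.9. Crabp1 and Rarg met in 110 white cells against 109 and in 127 brown cells against 135. Aldh1a1 and Aldh1a3 met in 23 white cells against 15.6, and in 4 brown cells against 7.36. Without thinning, the last pair met in 78 white cells against 70.2 and in 36 brown cells against 33.6, so the brown count lay below independence only when thinned. These are counts of cells within 1 library each.

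Levels of some members differed with the called cell cycle phase. Crabp1 stood at 48.1 CPM in G1, 61.0 in S and 58.9 in G2M in white cells, and at 102, 140 and 134 CPM in brown cells. Crabp2 went the other way, with 4.87, 2.33 and 2.15 CPM in white and 5.47, 2.40 and 2.99 CPM in brown. Rarg was lowest in S phase of both libraries, at 29.9, 19.5 and 25.9 CPM in white and 25.3, 16.1 and 19.7 CPM in brown. Aldh1a1 was highest in G1 of both, at 14.2 and 6.72 CPM. Aldh1a3 in brown cells hardly differed, at 8.92, 9.64 and 9.48 CPM. The phase groups were not matched for cluster, and the part of cluster in these levels was not tested. Phases were called from expression, 61.1% of white and 65.3% of brown cells being in G1, and with G1 cells alone the same number of members was past 2-fold in each comparison.

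**Figure D5:**
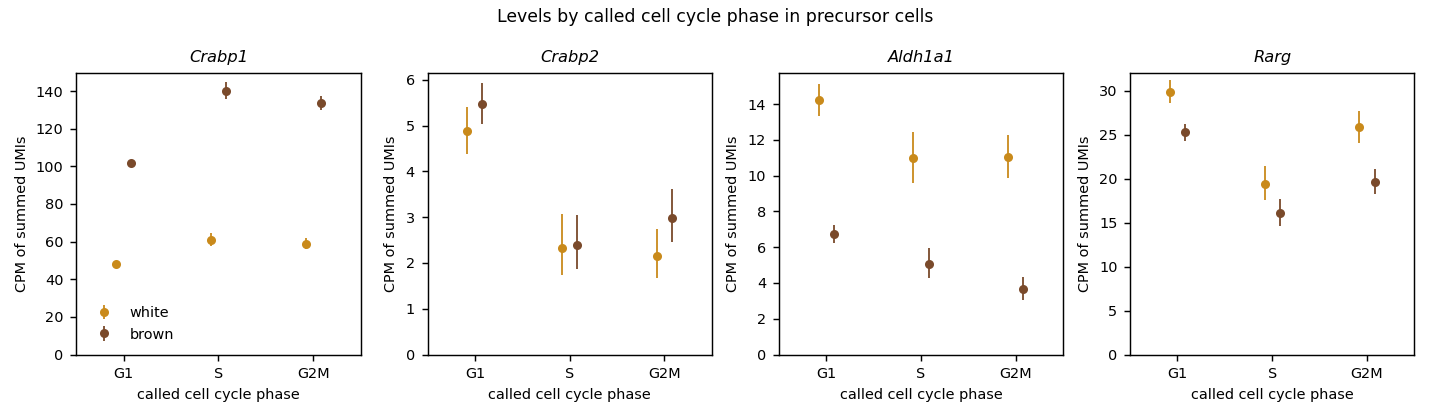
Levels of 4 members by called cell cycle phase in white and brown precursor cells, in CPM of summed UMIs with exact 95% Poisson intervals. Crabp1 was higher in S and G2M than in G1, Crabp2 lower, and Rarg lowest in S, in both depots.

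Around these members, 59 genes of retinoid uptake, storage, synthesis, breakdown, reception and response were counted, members included. At 10 CPM in either depot there were 27, of which 3 were past 2-fold between depots: Crabp1, Aldh1a1 and Dhrs3. Dhrs3, a retinal reductase that returns retinal to retinol, stood at 42.8 CPM in white and 19.0 CPM in brown cells (log2 ratio 1.17, 1.11 to 1.23) and was past 2-fold within CAPs and within FAPLs as well (1.16 in each). Over all 9038 genes 1.84% were past 2-fold, and the median log2 ratio was 0.26 for the 27 listed genes and 0.04 for all. None of the 10 receptors and cofactors at 10 CPM was past 2-fold in any comparison, and Rara stood at 33.4 and 35.8 CPM. From 1.69% (wFAPLs over bFAPLs) to 4.32% (wCAPs over bCAPs) of all genes were, so none of 10 does not set these genes apart. At a minimum of 1 CPM, Rarb of this list was past 2-fold between depots and between CAPs and FAPLs of each depot.

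Between CAPs and FAPLs 7 of 28 genes of the lists were past 2-fold in each depot, 5 lower in CAPs and 2 higher. Of all genes, 3.85% were in white and 3.87% in brown cells. The lists were chosen with earlier results of these data known, so the counts are descriptions and no test of the lists. The median log2 ratio of the listed genes was -0.04 in white and 0.03 in brown cells, against 0.01 and 0.04 over all genes. Among those lower in both depots were Aldh1a1, Aldh1a3, the retinoid-responsive gene Rarres1 and the orphan receptor Nr2f2. The study had itself named Nr2f2 among the drivers of FAPLs in these cells. Rarres1 stood at 2.73 CPM in CAPs and 19.2 CPM in FAPLs of white fat and at 7.44 and 20.7 CPM in brown, and Nr2f2 at 89.2 and 244 CPM and at 80.9 and 193 CPM. The genes higher in CAPs differed, with the homeobox genes Meis1 (135 and 62.5 CPM) and Meis2 (366 and 169 CPM) in white cells, and Crabp1 and the retinol carrier Rbp4 (10.4 and 1.72 CPM) in brown cells. Within CAPs, Rbp4 and the homeobox gene Hoxb4 (14.4 CPM in white, 31.8 in brown) were past 2-fold lower in white cells, and Rarres2 (13.5 and 6.70 CPM) higher.

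Across the 14 clusters, the genes whose log2(CPM + 1) ran most like each member were ranked by Pearson's r among 10229 genes, as a description without a test, since clusters of a depot share a library. For Crabp1 they were Fasn, the fatty acid synthase (r = 0.88), Acly, which supplies it with acetyl-CoA (0.88), and Bap1 (0.87). Fasn had r = 0.89 over the 7 white and 0.81 over the 7 brown clusters, which are the clusters it was picked on. Its Spearman's rho over all 14 was 0.77. For Aldh1a1 they were Kcnma1, Atg16l2 and Cnksr3 (0.88, 0.87 and 0.86), for Aldh1a3 Creb3l1, Mterf3 and Cmklr1 (0.88, 0.86 and 0.86) and for Crabp2 Anpep, Phc1 and Pdgfrl (0.89, 0.89 and 0.88). For Rarg they were Hoxc5, mt-Nd4 and Peli2 (0.90, 0.88 and 0.88), with r of 0.46, 0.28 and 0.28 over brown clusters alone. For Rarb they were 1700086O06Rik, Hist1h2ac and F830016B08Rik (0.93, 0.92 and 0.89), whose r was 0.76, 0.73 and 0.58 without the 15 differentiating wFAPLs. Aldh1a2, Cyp26b1 and Stra6 did not reach 10 CPM in any cluster and were not ranked.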

How the data were processed

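Stromal vascular cells of both depots were sequenced with droplet-based 3′ chemistry, and the authors aligned the reads to mm10 and counted UMIs with Cell Ranger 7.0.1. The deposited matrices hold raw UMI counts per gene and cell. Cells were kept with 3900 to 7700 genes, 6000 to 60000 UMIs and 1.7% to 5% mitochondrial UMIs, and no doublet caller was run. Cells with glial, myeloid or myogenic markers were set apart. Cluster labels were used for 1999 cells per depot, from a label table held only in part, and, for alternatives, were carried over to the rest by a vote of 15 neighbours (91.5% of held-out white and 87.0% of brown labels were matched). Counts were summed per group in Python 3.11.15 with scipy 1.17.1 and scanpy 1.11.5. A gene was called past 2-fold at 10 CPM or more in either group, with no p-value because each depot was 1 library. Named genes were the members, the listed retinoid genes past 2-fold and the 3 genes most like each member. The members and lists were chosen with earlier results of these data known. The scripts were tested on simulated counts for white over brown (8823 genes), where 100% of 95 genes changed by 1.5 on the log2 scale were past 2-fold. These counts held counting error only, so the test checked the arithmetic, and cluster ratios were not simulated. The intervals held the true value for 95.1% of unchanged genes, 94.7% of those 95 and 91.4% of 105 genes changed by 2. Results for 1 of the listed genes are not reported here.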

Additional observations from a re-analysis of the deposited data

Results flagged for a closer look

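The log2 ratio of white over brown for Crabp1 was -1.55 in CAPs and 0.657 in FAPLs. It was singled out because the depots stood in opposite order in these classes. Across the alternatives the FAPL ratio ran from 0.23 to 0.78. The difference was not tested, since each depot was 1 library.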

How the results depend on the processing

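No paired analysis was possible because each depot was 1 library. Some members within 2-fold changed sign, such as Crabp2 between depots (from -0.24 to at most 0.19). Among those past 2-fold 1 did: the Aldh1a1 log2 ratio of wCAPs over wFAPLs became 0.64 without cells holding a mural marker UMI, an alternative chosen after seeing the data that left 36 of 256 wFAPLs. With cells thinned to 10000 UMIs, 2 members in place of 1 were past 2-fold between wCAPs and bCAPs. The number of retinoid list genes past 2-fold followed the minimum level. At 1 CPM it was 6 between depots, 12 between wCAPs and wFAPLs, 11 between wCAPs and bCAPs and 6 between wFAPLs and bFAPLs, of 42, 43, 42 and 43 listed genes counted, beside 3.63%, 8.52%, 9.36% and 6.64% of all genes. Between bCAPs and bFAPLs it was 10 of 42 at 1 CPM, beside 9.52% of all genes. At 50 CPM 12 listed genes were counted in each comparison. The number past 2-fold was then 1 between depots, beside 1.37% of all genes, and 4 between wCAPs and wFAPLs, beside 3.23%. It was 2 between wCAPs and bCAPs (4.08%), 1 between wFAPLs and bFAPLs (1.07%) and 3 between bCAPs and bFAPLs (3.19%). Of the 18 genes most like a member, 7 were shared with a ranking by Spearman's rho and 6 with one that left out the 15 differentiating wFAPLs, the latter also chosen after seeing the data. Across the alternatives Crabp1 between depots ran from -1.17 to -0.87 and Aldh1a1 from 1.06 to 1.15 on the log2 scale. Depth limits Stra6, Aldh1a2, Cyp26b1 and Rarb, whose cluster values rest on few UMIs, and the spread between animals cannot be seen in either depot.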

Other observations

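Genes beside Crabp1 were compared between cells with 5 or more of its UMIs and cells with none, thinned to 10000 UMIs and set against the rate of the cells with none in the same cluster. The genes were chosen after values had been seen, labels were carried over to all cells, and intervals cover counting error only. Dlk1, a marker of early fat precursors, was 1.38-fold (1.29 to 1.47) as high in 84 white cells with much Crabp1 and 2.79-fold (2.71 to 2.88) in 463 brown cells. Cdkn1c, an inhibitor of the cell cycle, stood at 1.47-fold and 2.37-fold. Clusters with too few cells of much Crabp1 were not compared, among them wCAPs, wFAPLs and bFAPLs. Dlk1 was higher in 9 of the 9 clusters compared, by log2 ratios from 0.19 in wAPC 2 to 1.68 in bAPC 1. Aldh1a3 stood at 0.222-fold in brown cells, with 11 UMIs where the rate of the other cells gives 49.5, and at 0.167-fold in white cells, from 1 UMI against 5.99. Fabp4, a gene of maturing fat cells, stood at 0.136-fold in white cells (4 UMIs) and 0.63-fold in brown cells. Igf2 stood at 1.04-fold in both, with log2 ratios of single clusters from -0.87 in bCAPs to 0.44 in bAPC 2.

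Brown precursor cells with a UMI of Hoxc9, a homeobox gene of the trunk, numbered 948 of 5963. Aldh1a1 stood at 3.97 CPM in them and 6.18 CPM in the other 5015 cells, a log2 ratio of -0.64 (-0.93 to -0.36), while Crabp1 stood at 126 and 113 CPM and Aldh1a3 at 10.1 and 8.96 CPM. The groups were not matched for cluster or depth, and Aldh1a1 ran from 2.05 CPM in bAPC 3 to 16.2 CPM in bFAPLs. The part of cluster and depth in these levels was not tested.

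Among the 854 white and 872 brown barcodes outside the cell filter, Crabp1 stood at 53.0 and 115 CPM, next to 53.1 and 115 CPM in precursor cells.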
